A study of Mus musculus with 8 samples.

Results

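The difference between 2 knockout effects was examined in nuclear RNA of mouse embryonic stem cells. It is the change from Mettl14 Control to Mettl14 CKO minus the change from Mettl3 Control to Mettl3 CKO, both on the log2 scale. It takes in all 8 of the 8 libraries of the series, 2 in each of 4 groups, which were assigned from the sample titles. All groups are C57BL/6 embryonic stem cells grown in serum with LIF, the GSK3 inhibitor CHIR99021 and the MEK inhibitor PD0325901; CKO marks the Mettl14 or Mettl3 knockout, and each line has its own Control. The sources used here do not state how or when the genes were deleted, or whether a line is 1 clone. RNA was taken from the nuclear fraction and freed of ribosomal RNA before library preparation. No label says that the libraries of a group are separate cultures; the p-values therefore reflect the spread of these libraries alone, which may be technical.

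METTL3 and METTL14 form a dimer that methylates adenosine in RNA at the N6 position (m6A). METTL3 holds the catalytic site and METTL14 helps to bind the RNA, so loss of either partner is known to lower m6A on messenger RNA. In embryonic stem cells the mark is known for its part in the turnover of pluripotency transcripts and of chromatin-linked RNA. The title of the series sets a role of METTL14 apart from m6A, and the difference of the knockouts bears on which transcripts respond unequally.

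Total counts ran from 17235889 to 20086128 per library, and 21782 of 54446 genes had enough counts to be tested. Levels are CPM, the count divided by the library's total and put on a common scale, with totals scaled by TMM, a method that centres most genes. A gene was called at a p under 0.05 in the quasi-likelihood test of edgeR after Benjamini-Hochberg adjustment over all tested genes. A higher difference means that the gene's change in Mettl14 CKO lay above its change in Mettl3 CKO, and a lower difference that it lay below. The lines also differed before any knockout: summed over 10 embryonic stem cell markers, Mettl14 Control had 2443 and 2415 CPM and Mettl3 Control 976 and 993 CPM. Each difference contains both controls, so levels in all 4 groups are given for many of the named genes. Where only a difference or a change is given, the controls can be as far apart. Ccn2, for example, had means of 167 CPM in Mettl14 Control and 500 in Mettl3 Control. Median control differences (log2, Mettl14 Control minus Mettl3 Control) were -2.06 for fibroblast markers, 0.90 for core pluripotency genes and 0.24 for small nucleolar and Cajal body RNAs. In bulk RNA, fewer cells of a type and less RNA per cell cannot be told apart.

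The difference was called higher in 2777 genes (12.7% of tested genes) and lower in 4461 (20.5%). This split depends on how the libraries are scaled. With upper-quartile scaling, which moved the difference of all genes by a median of 0.157 on the log2 scale and the Mettl3 change by -0.113, 4287 genes were higher (19.7%) and 2788 lower (12.8%). Called genes were thus higher in 38.4% of cases with TMM, in 60.6% with upper quartiles and in 52.7% when TMM was applied to abundant genes alone. Calls that held in the same direction with TMM, RLE (the scaling of DESeq2) and upper-quartile scaling numbered 2683 higher (12.3%) and 2788 lower (12.8%). For each gene group, members called with TMM are given first and those called with all 3 scalings after them. Counts of 4 or fewer members moved by at most 3 members when single libraries were left out; of larger counts, those that moved by more than 1.5 times are given. Most listed genes are abundant, so they are read against 10099 abundant genes, defined by a mean log2 CPM of 3 or more. Of these, 14.8% were higher and 40.2% lower with TMM, 14.1% and 25.3% with all 3 scalings, and their median difference was -0.15 (0.01 with upper quartiles). In single knockouts with TMM, 25.7% of abundant genes rose and 40.9% fell in Mettl14 CKO, 29.6% rose and 7.05% fell in Mettl3 CKO, and 9.63% fell in the former and rose in the latter.

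The knockouts disagreed mainly through genes that changed with Mettl14 and were not called with Mettl3. Mettl14 CKO had 3921 higher (18.0%) and 4880 lower genes (22.4%), and Mettl3 CKO 3292 higher (15.1%) and 1260 lower genes (5.78%). The 1260 became 619 and 599 without Mettl3 CKO replicate 1 or 2 and 678 and 768 without Mettl3 Control replicate 1 or 2. Of the 7238 genes called in the difference (33.2%), 3872 (53.5%) were called in Mettl14 CKO and not in Mettl3 CKO, and 831 (11.5%) in Mettl3 CKO and not in Mettl14 CKO. A further 840 changed in the same direction by different amounts and 553 were called in neither knockout. Changes of opposite sign made up the rest: 997 genes (4.58% of tested genes) fell in Mettl14 CKO and rose in Mettl3 CKO, and 145 (0.666%) did the reverse. With all 3 scalings, 323 and 138 genes had these opposite signs. Leaving out any single library turned the 145 into 60 to 85. Small Mettl3 changes depend on the scaling most: with upper quartiles the Mettl3 rises of Apoe, Col4a1, Col5a2, Epha2, Hist2h2ac, Hmgcs1, Lars2, Mki67, P4ha1, Trp53inp1, Vegfb and Yap1 were not called, and Eif2ak2, Incenp, Rpl26, Smarcc1, Srrm1, Tet2 and Zc3h13 were called lower in Mettl3 CKO.

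**Figure D1:**
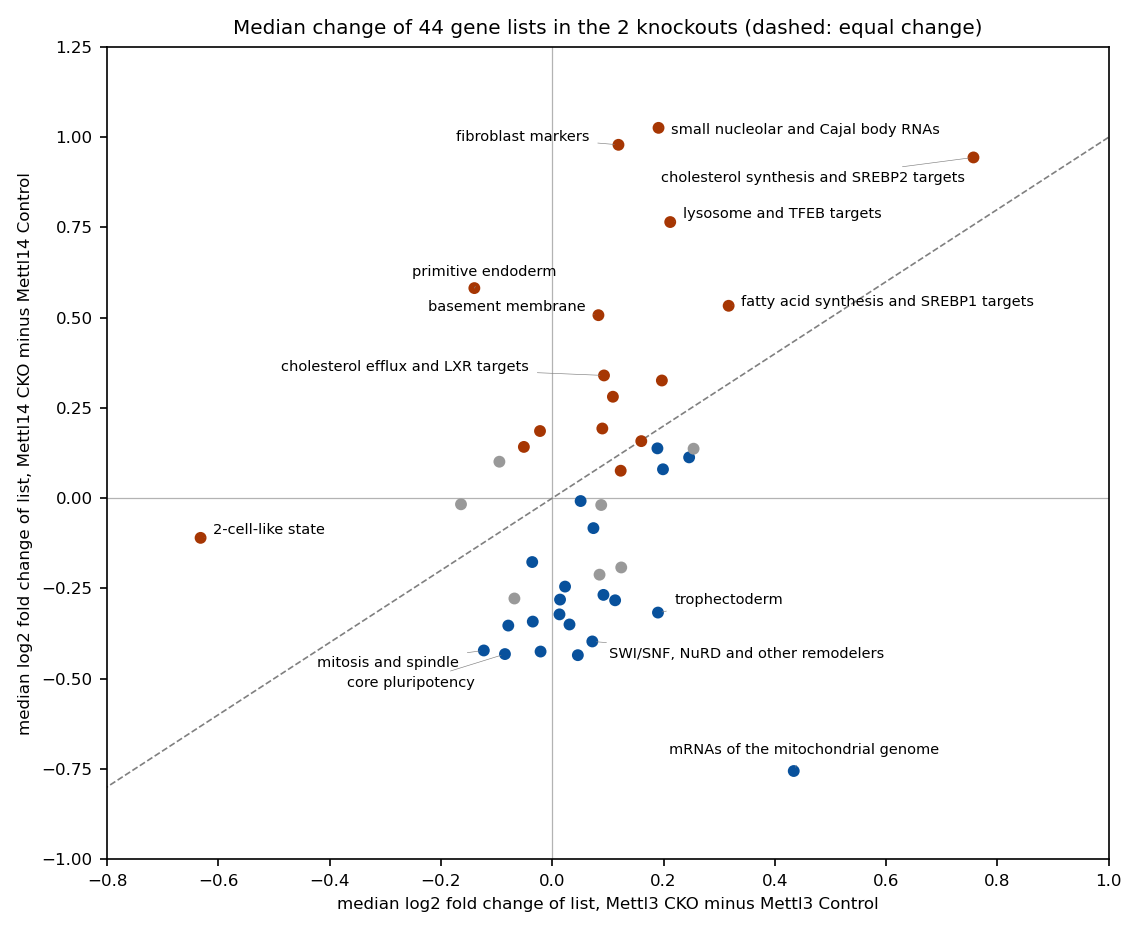
Each point is one of 44 gene lists, placed by the median log2 fold change of its tested members in Mettl3 CKO (x axis) and in Mettl14 CKO (y axis), TMM scaling; on the dashed line both changes are equal. Blue lists have more than 25.3% of members lower in the difference with all 3 scalings and brown lists, among the rest, more than 14.1% higher, which are the shares over abundant genes; the mitochondrial mRNAs (0.43 and -0.76) lie farthest below the line, and the small nucleolar RNAs (0.19 and 1.03) and fibroblast markers (0.12 and 0.98) farthest above it of the lists named in the plot with a Mettl3 median above 0.

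Of the 8 genes named for the largest changes down in Mettl14 CKO and up in Mettl3 CKO, Cited2 had the lowest difference. Lars2, named for its size, had these calls with TMM and a lower difference (-4.54), and its Mettl3 rise was not called with upper quartiles. Cited2, a coactivator that binds CBP and p300 (chromosome 10, 17723218 to 17725674, plus strand in mm10), stood at 61.6 and 54.6 CPM in the Mettl14 Control libraries and 13.6 and 12.1 in Mettl14 CKO, against 11.9 and 12.3 in Mettl3 Control and 20.2 and 17.9 in Mettl3 CKO. The Mettl14 CKO libraries lay below both of their controls and the Mettl3 CKO libraries above both of theirs, although Mettl3 Control started at the level to which Mettl14 CKO had fallen. Its difference was -2.84 ± 0.13 (log2, SE, edgeR adjusted p = 4.9e-43).

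Genes that fell with Mettl14 and rose with Mettl3 also included an imprinted RNA, a mitochondrial mRNA and an RNA-binding protein. Mex3d, an RNA-binding protein gene (chromosome 10, 80380355 to 80387659, minus strand), had 9.22 and 9.79 CPM in the Mettl14 Control libraries and 5.41 and 5.06 in Mettl14 CKO, against 9.79 and 9.11 in Mettl3 Control and 15.8 and 16.5 in Mettl3 CKO. H19, an imprinted long noncoding RNA, had 51.2 and 50.4 CPM in the Mettl14 Control libraries and 27.4 and 29.2 in Mettl14 CKO, against 1.13 and 1.52 in Mettl3 Control and 2.39 and 2.40 in Mettl3 CKO; in the Mettl3 line it was close to the lower end of the tested range. The differences were -1.64 ± 0.19 for Mex3d and -1.70 ± 0.26 for H19 (SE, edgeR adjusted p = 2.0e-13 and 1.2e-08). In both lines of both genes, CKO and Control libraries did not overlap. The glycosyltransferase gene Mgat4b (-0.64 in Mettl14 CKO, 0.65 in Mettl3 CKO), the cell adhesion gene Nectin1 (-0.54 and 0.57), the ribosomal oxygenase gene Riox1 (-0.53 and 0.59) and the ribosomal protein gene copy Rpl10l (-0.93 and 0.69) had the same signs. Nectin1 overlaps a predicted gene on the opposite strand, and the sources used here do not state the strand setting of the counting.

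The named genes of the reverse order, up with Mettl14 and down with Mettl3, included genes of the cell surface and the contractile cytoskeleton. Plau, the urokinase plasminogen activator (chromosome 14, 20836660 to 20843385, plus strand), had 3.90 and 3.64 CPM in the Mettl14 Control libraries and 6.92 and 8.83 in Mettl14 CKO, against 14.2 and 15.7 in Mettl3 Control and 10.3 and 11.7 in Mettl3 CKO. Its difference was 1.51 ± 0.20 (SE, edgeR adjusted p = 2.5e-10), and the groups did not overlap within either line. Cnn1, the smooth muscle protein calponin, had 6.40 and 5.84 CPM in the Mettl14 Control libraries and 8.82 and 8.42 in Mettl14 CKO, against 21.3 and 19.7 in Mettl3 Control and 14.8 and 13.2 in Mettl3 CKO, a difference of 1.04 ± 0.17. Tgm2, a crosslinking transglutaminase, rose by 0.57 and fell by 0.36, the mechanosensitive channel gene Piezo2 rose by 0.50 and fell by 0.37, and the actin-bundling gene Lcp1 rose by 0.67 and fell by 0.38 in Mettl14 CKO and Mettl3 CKO, in that order. Ptprq, a receptor phosphatase gene, the noncoding RNA Kis2 and the histone gene Hist1h4b completed the 8 genes named for the largest changes in this order, with differences of 1.41, 0.85 and 0.86. Of these 8, for all but Kis2, Hist1h4b and Lcp1 every Mettl3-line library lay above every Mettl14-line library. Abca1, Flna, Lrp2 and Mirg, named by other parts of the rule, were called in the same order, with differences of 1.55, 0.91, 0.36 and 1.07. Abca1 had the highest difference of the 12, and its Mettl14 Control libraries lay above its Mettl3 Control libraries.

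**Figure D2:**
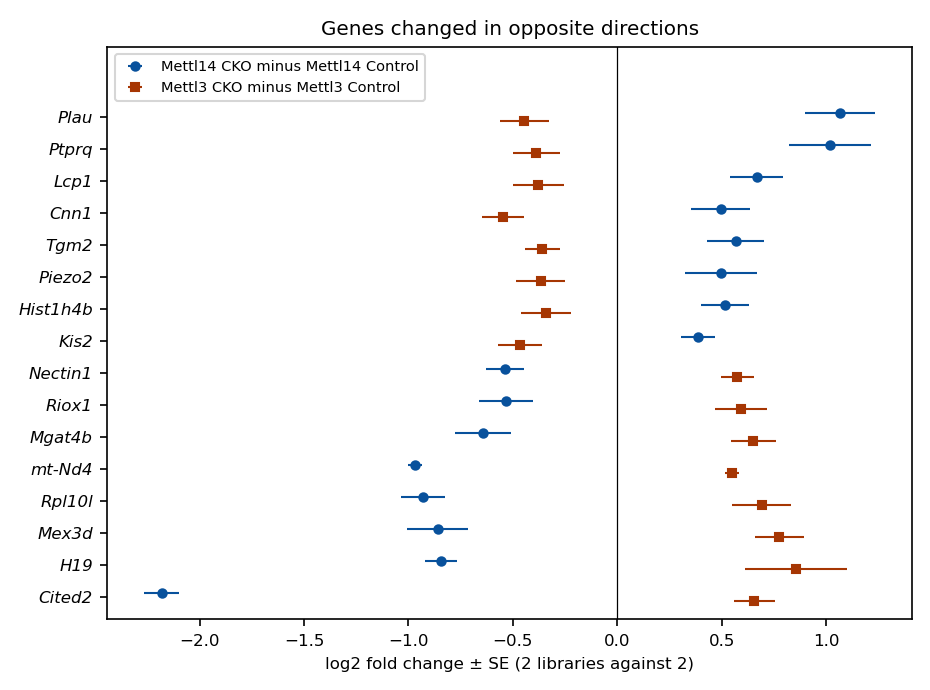
Log2 fold change of 16 genes called in opposite directions in Mettl14 CKO (circles) and Mettl3 CKO (squares), each against its own Control; bars are the SE of the edgeR fit over 2 libraries against 2. Both symbols lie on different sides of 0 for every gene; Cited2 has the farthest Mettl14 change (-2.18) and H19 the farthest Mettl3 change (0.85).

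The 2 targeted genes set the sign of the comparison. Mettl14 had 58.3 and 55.0 CPM in the Mettl14 Control libraries and 27.8 and 30.2 in Mettl14 CKO, against 30.1 and 26.7 in Mettl3 Control and 29.6 and 28.7 in Mettl3 CKO, a difference of -1.001 ± 0.10 (SE, edgeR adjusted p = 2.4e-16). Mettl3 had 40.2 and 43.8 CPM in the Mettl14 Control libraries and 40.7 and 44.4 in Mettl14 CKO, against 37.9 and 36.1 in Mettl3 Control and 19.8 and 18.6 in Mettl3 CKO, a difference of 0.97 ± 0.10 (adjusted p = 2.4e-15); it overlaps Tox4 on the opposite strand. Each was lower in its own knockout libraries, with no overlap, and its groups overlapped in the other line; Mettl14 lay in the same range in Mettl14 CKO and both Mettl3-line groups.

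Other m6A genes were mostly lower in the difference with TMM. In the list of 9 writer genes, targets included, 2 were higher and 6 lower (1 and 3 with all 3 scalings), with a median difference of -0.22. The signs of Mettl14 (lower) and Mettl3 (higher, the 1 kept with all 3 scalings) are set by the design. With all 3 scalings, 11.1% of the list was higher and 33.3% lower, against 14.1 and 25.3% of abundant genes. Zc3h13, a scaffold of the writer complex, had 423 and 409.6 CPM in the Mettl14 Control libraries and 198 and 207 in Mettl14 CKO, against 243 and 233 in Mettl3 Control and 233 and 226 in Mettl3 CKO, a difference of -0.99 ± 0.04 (SE, edgeR adjusted p = 1.4e-44). Cbll1, which encodes the subunit HAKAI, had a difference of -1.23. Of 15 readers and demethylases, 1 was higher and 12 lower (1 and 10), with a median difference of -0.41, and 5 had opposite signs. Prrc2a, an m6A reader, had 252 and 257 CPM in the Mettl14 Control libraries and 104 and 108 in Mettl14 CKO, against 232 and 241 in Mettl3 Control and 274 and 284 in Mettl3 CKO. It fell in Mettl14 CKO and rose in Mettl3 CKO without overlap, although both controls were alike in level, and its difference was -1.50 ± 0.05 (SE, edgeR adjusted p = 1.2e-60). The nuclear reader Ythdc1 followed the same order (-0.79 and 0.21), as did the demethylase Alkbh5 (-0.64 and 0.44). The other demethylase, Fto, was not called in the difference (-0.0036), and the reader Rbmx was higher (0.30).

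Pluripotency factors were mostly lower in the difference, having fallen further with Mettl14 than with Mettl3. Of 15 core pluripotency genes, 2 had a higher and 10 a lower difference (2 and 8 with all 3 scalings), with a median of -0.41 (-0.26 with upper quartiles); in Mettl14 CKO 12 fell, and in Mettl3 CKO 4 fell and 2 rose (9 and 1 with upper quartiles). Pou5f1, which encodes the factor Oct4 (chromosome 17, 35506018 to 35510772, plus strand), had 571 and 548 CPM in the Mettl14 Control libraries and 241 and 239.6 in Mettl14 CKO, against 81.6 and 77.8 in Mettl3 Control and 105 and 103 in Mettl3 CKO. It fell in Mettl14 CKO and rose in Mettl3 CKO with no overlap, and even after the fall every Mettl14 CKO library lay above every Mettl3-line library. Its difference was -1.61 ± 0.05 (SE, edgeR adjusted p = 1.2e-61). Sox2, the partner of Oct4, which lies within the noncoding gene Sox2ot, had 86.2 and 88.3 CPM in the Mettl14 Control libraries and 22.9 and 22.4 in Mettl14 CKO, against 36.7 and 35.9 in Mettl3 Control and 36.2 and 37.6 in Mettl3 CKO; the Mettl3-line groups overlapped, and the difference was -1.97 ± 0.09. Nanog, another core factor, was not called in the difference (-0.07 ± 0.06); it fell in both knockouts (-0.43 and -0.36). Zfp296, a zinc finger partner of the reprogramming factors, had a difference of -2.36 ± 0.15; it overlaps Gemin7 on the opposite strand. The surface genes Epcam (0.28) and Tdgf1 (0.29) were the 2 higher members.

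Within the naive pluripotency list of 22 genes, which marks the ground state of these cells, 2 were higher and 13 lower (2 and 8; median -0.22, -0.06 with upper quartiles). Klf4, a Kruppel-like factor, had 187 and 198 CPM in the Mettl14 Control libraries and 72.4 and 68.7 in Mettl14 CKO, against 82.7 and 82.3 in Mettl3 Control and 88.9 and 82.3 in Mettl3 CKO, a difference of -1.50 ± 0.06 (SE, edgeR adjusted p = 5.9e-48). Its relatives Klf5 (-0.99) and Klf2 (-0.80) were also lower, while the ground-state gene Prdm14 (0.26 ± 0.28) and the FGF ligand gene Fgf4 (0.07 ± 0.05) were not called. Trim8, a ubiquitin ligase gene, had a difference of -1.50. Of 20 genes of the formative and primed epiblast, 3 were higher and 9 lower (3 and 6; median -0.21, -0.05 with upper quartiles). With all 3 scalings, 15.0% were higher and 30.0% lower, close to the 14.1 and 25.3% of abundant genes. The higher ones included Nodal, a TGF-beta family ligand (0.72 ± 0.08), and Lefty2, its antagonist (0.54 ± 0.07). The 10 stem cell markers summed to 2443 and 2415 CPM in the Mettl14 Control libraries, 1806 and 1820 in Mettl14 CKO, 976 and 993 in Mettl3 Control and 964 and 950 in Mettl3 CKO, and 9 of 10 lay above 10 CPM in every library.

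Chromatin remodelers had the largest share of lower differences of the 44 lists with all 3 scalings (72.1%). Of 43 genes for SWI/SNF, NuRD and other remodelers, which move or eject nucleosomes, 0 were higher and 35 lower (0 and 31), with a median of -0.54 (-0.38 with upper quartiles), and 16 fell in Mettl14 CKO and rose in Mettl3 CKO with TMM. In Mettl3 CKO alone, 17 rose and 5 fell with TMM, and 6 rose and 15 fell with upper quartiles. After leaving out any single library, 35 to 37 were lower and 0 higher. Bptf, the largest subunit of the NURF remodeler (chromosome 11, 107033081 to 107132127, minus strand), had 597 and 580.2 CPM in the Mettl14 Control libraries and 349 and 334 in Mettl14 CKO, against 335 and 325 in Mettl3 Control and 385 and 389.9 in Mettl3 CKO. The groups were apart in both lines, in opposite order, and the difference was -1.02 ± 0.04 (SE, edgeR adjusted p = 3.9e-51). Smarcc1, a core BAF subunit, had 735 and 728 CPM in the Mettl14 Control libraries and 410.3 and 417 in Mettl14 CKO, against 325 and 319 in Mettl3 Control and 314 and 310.5 in Mettl3 CKO, a difference of -0.78 ± 0.04; it overlaps Dhx30 on the opposite strand. Mbd3, the NuRD subunit, had a difference of -1.26 and Arid1a, a DNA-binding BAF subunit, -0.87.

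Histone-modifying enzymes had a similar order. Of 40 Polycomb components, 1 was higher and 25 lower (1 and 22; median -0.36), among them Epop, a cofactor of PRC2, with 148 and 155 CPM in the Mettl14 Control libraries and 79.9 and 72.0 in Mettl14 CKO, against 60.2 and 59.0 in Mettl3 Control and 91.0 and 80.9 in Mettl3 CKO. Epop fell in Mettl14 CKO and rose in Mettl3 CKO without overlap (difference -1.53 ± 0.07, SE, edgeR adjusted p = 5.6e-36). The H3K27 methyltransferase gene Ezh2 had a difference of -0.99 ± 0.06 and was not called in Mettl3 CKO (0.01); Suz12, its partner, had -0.68, and Phf1 was the higher member (0.48). Among 25 H3K4 and H3K27 methyltransferases and demethylases, 0 were higher and 17 lower (0 and 15; median -0.43). Kdm6b, an H3K27 demethylase (chromosome 11, 69398508 to 69413675, minus strand), had 63.1 and 66.9 CPM in the Mettl14 Control libraries and 19.6 and 18.5 in Mettl14 CKO, against 32.2 and 35.8 in Mettl3 Control and 49.0 and 42.2 in Mettl3 CKO. It was the lowest of that list, with opposite, non-overlapping changes and a difference of -2.19 ± 0.10 (SE, edgeR adjusted p = 1.4e-42). Kmt2d, an H3K4 methyltransferase, had a difference of -1.08 ± 0.04 (-0.77 and 0.31). Of 33 H3K9 and DNA methylation repressors, 3 were higher and 23 lower (3 and 19; median -0.34). Hells, a remodeler needed for DNA methylation, fell in both knockouts and more in Mettl14 CKO (-0.78 and -0.23), and Tet2, a 5-methylcytosine oxidase, fell in Mettl14 CKO (-0.66) and was not called in Mettl3 CKO (-0.05).

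RNA-processing factors were lower too. Of 44 SR and hnRNP splicing factors, 2 were higher and 35 lower (2 and 30; median -0.41), and in Mettl14 CKO 37 fell. Srrm2, a large SR-related protein of nuclear speckles, had 1617 and 1599 CPM in the Mettl14 Control libraries and 807 and 789 in Mettl14 CKO, against 874 and 868 in Mettl3 Control and 1028 and 1026 in Mettl3 CKO. Its changes were opposite and its difference was -1.25 ± 0.03 (SE, edgeR adjusted p = 1.1e-69); it overlaps Elob on the opposite strand. Srrm1, its relative, had a difference of -1.06 ± 0.04 and was not called in Mettl3 CKO (-0.02). Of 29 genes of the nuclear exosome and linked surveillance, which degrade nuclear RNA, 0 were higher and 21 lower (0 and 12; median -0.30). The exosome cofactor Mphosph6 had a difference of -0.85 ± 0.09. Mpp6, which the list holds although in mouse this symbol names a membrane scaffold gene, had -0.93 ± 0.08 and overlaps Gsdme on the opposite strand.

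**Figure D3:**
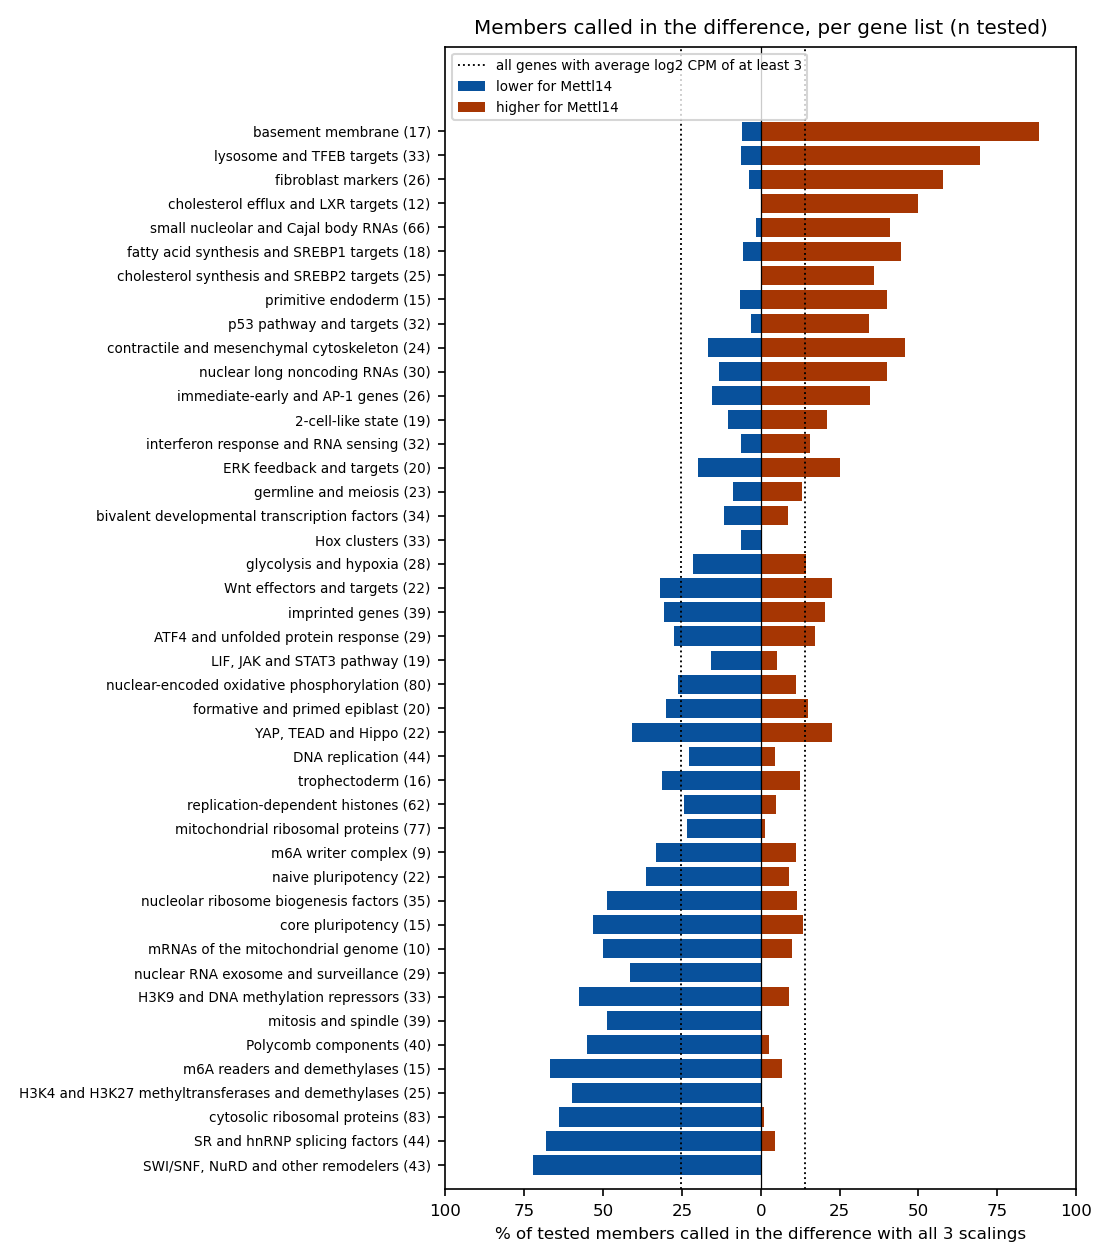
Share of the tested members of each of 44 gene lists (n in parentheses) called higher (brown, right) or lower (blue, left) in the difference with all 3 scalings. Dotted lines mark 14.1% higher and 25.3% lower over the 10099 abundant genes; remodelers have 31 of 43 members lower and basement membrane genes 15 of 17 higher.

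Ribosome and nucleolus genes were mostly lower in the difference. Of 83 cytosolic ribosomal protein genes, 1 was higher and 68 lower (1 and 53; median -0.37, -0.21 with upper quartiles), 16 with opposite signs with TMM. Pseudogene copies can share reads with these genes, and the sources used here do not state how shared reads were counted. Rpl26 had 1365 and 1336 CPM in the Mettl14 Control libraries and 668 and 682 in Mettl14 CKO, against 278 and 262 in Mettl3 Control and 278 and 269 in Mettl3 CKO. Rpl12 had 717 and 716 CPM in the Mettl14 Control libraries and 413 and 424 in Mettl14 CKO, against 225 and 216 in Mettl3 Control and 262 and 263 in Mettl3 CKO. Both fell in Mettl14 CKO without overlap, and the Mettl3-line groups of Rpl26 overlapped while those of Rpl12 did not. Their differences were -1.02 ± 0.04 and -1.02 ± 0.04 (SE, edgeR adjusted p = 6.1e-53 and 7.8e-51); Rpl12 overlaps Lrsam1 on the opposite strand. Among 35 nucleolar ribosome biogenesis factors 4 were higher and 20 lower (4 and 17; median -0.34). Npm1, the nucleolar chaperone nucleophosmin (chromosome 11, 33152287 to 33163206, minus strand), had 3258 and 3179 CPM in the Mettl14 Control libraries and 958 and 961 in Mettl14 CKO, against 299 and 292 in Mettl3 Control and 374 and 354 in Mettl3 CKO. Its difference was -2.05 ± 0.03 (SE, edgeR adjusted p = 1.4e-91), with opposite changes and a control level in the Mettl14 line far above that of the Mettl3 line. Tcof1, a factor for ribosomal RNA transcription, fell in both knockouts and far more with Mettl14 (-1.34 and -0.09). Mitochondrial ribosomal protein genes were lower in 36 and higher in 1 of 77 (18 and 1; median -0.29), with a share of lower calls above that of abundant genes with TMM (46.8 against 40.2%) and below it with all 3 scalings (23.4 against 25.3%).

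Small nucleolar RNAs went against the mRNAs of ribosome production. They guide chemical modification of ribosomal and spliceosomal RNA, and most are cut from introns of host genes. Of 66 tested small nucleolar and Cajal body RNAs, 27 had a higher and 1 a lower difference (27 and 1), with a median of 0.85 (1.01 with upper quartiles); 47 rose in Mettl14 CKO and 3 in Mettl3 CKO. Leaving out each library in turn gave 22 to 40 higher, over more tested genes. The higher share was 40.9%, against 14.8% of abundant genes and 12.7% of all tested genes with TMM. Only 31 of the 66 were abundant, and the least abundant eighth of tested genes had a median difference of 1.21. How far low abundance enters the median of these RNAs was not tested. The sequences of 5 of them show the 2 architectures that took part, box C/D RNAs that guide ribose methylation and box H/ACA RNAs that guide pseudouridylation. Capitals mark the box C motif TGATGA and the box D motif CTGA in C/D RNAs and the last ACA trinucleotide near the 3′ end in H/ACA RNAs, as found by an exact search of the sense strand of the GENCODE M21 transcripts (mm10, written 5′ to 3′ with T for U). In Snora41, 2 ACA trinucleotides overlap near the end and only the last is marked, so the box may be the one before it.
Snord15a, chr7:99482785-99482932, minus strand: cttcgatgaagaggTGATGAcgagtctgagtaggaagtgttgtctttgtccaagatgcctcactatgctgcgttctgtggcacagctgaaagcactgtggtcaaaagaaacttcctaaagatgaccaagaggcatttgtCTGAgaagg
Snord17, chr2:144265979-144266216, minus strand: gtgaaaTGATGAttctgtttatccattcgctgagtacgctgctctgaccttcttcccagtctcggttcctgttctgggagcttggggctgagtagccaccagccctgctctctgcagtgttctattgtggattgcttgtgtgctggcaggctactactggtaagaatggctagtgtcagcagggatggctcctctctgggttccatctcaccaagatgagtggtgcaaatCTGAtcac
Snora21, chr11:97781639-97781775, minus strand: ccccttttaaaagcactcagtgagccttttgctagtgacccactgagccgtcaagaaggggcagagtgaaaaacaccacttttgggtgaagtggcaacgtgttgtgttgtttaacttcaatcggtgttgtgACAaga
Snora41, chr1:63179004-63179135, plus strand: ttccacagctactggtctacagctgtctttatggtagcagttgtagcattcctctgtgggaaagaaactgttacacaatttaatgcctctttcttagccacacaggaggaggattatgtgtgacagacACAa
Scarna13, chr12:105031075-105031349, minus strand: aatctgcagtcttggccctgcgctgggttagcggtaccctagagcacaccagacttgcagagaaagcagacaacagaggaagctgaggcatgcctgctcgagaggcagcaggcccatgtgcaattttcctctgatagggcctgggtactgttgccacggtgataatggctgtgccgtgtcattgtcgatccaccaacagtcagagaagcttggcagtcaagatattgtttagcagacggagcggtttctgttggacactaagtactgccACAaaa

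Snord15a, the C/D RNA with the smallest p, had 250.0 and 265 CPM in the Mettl14 Control libraries and 564 and 539 in Mettl14 CKO, against 335 and 339.5 in Mettl3 Control and 351 and 355 in Mettl3 CKO. Mettl14 CKO lay far above the other 3 groups, and the difference was 1.03 ± 0.04 (SE, edgeR adjusted p = 2.7e-50). Scarna13, a Cajal body RNA in Snhg10, had 36.5 and 35.8 CPM in the Mettl14 Control libraries and 74.4 and 74.6 in Mettl14 CKO, against 44.7 and 44.4 in Mettl3 Control and 46.1 and 46.6 in Mettl3 CKO, a difference of 0.98 ± 0.08 (adjusted p = 1.3e-20). The H/ACA RNAs Snora41 (1.35 ± 0.15) and Snora21 (0.64 ± 0.05) and the C/D RNA Snord17 (1.15 ± 0.06) were higher as well, and Snord73a was the one lower member (-0.85 ± 0.27). By family, 14 of 43 C/D RNAs were higher and 1 lower, and 10 of 16 H/ACA RNAs and 3 of 7 Cajal body RNAs were higher. The C and D motifs as spelled were found in 25 of 43 C/D RNAs and the ACA in 16 of 16 H/ACA RNAs and 4 of 43 C/D RNAs.

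Of the 24 higher small RNAs whose host gene was tested, 3 hosts were higher, 13 lower and 8 not called, where 40.2% of abundant genes were lower. The median host difference was -0.25; the median of the RNAs, 1.13, is set by their choice as higher and is no comparison with the hosts. Snord73a, the lower member, lay below its host Rps3a1 (-0.33). Snora41 lies in Eef1b2, a translation elongation factor gene (host difference -0.39), Snora21 in the ribosomal protein gene Rpl23 (-0.33) and Snord17 in Snx5, a sorting nexin gene (-0.52). Rps3, the host of Snord15a, had a difference of -0.02 ± 0.04 that was not called (adjusted p = 0.738). The class of small nucleolar RNA held 0.264 and 0.289% of all counts in the Mettl14 Control libraries, 0.651 and 0.626% in Mettl14 CKO, 0.291 and 0.364% in Mettl3 Control and 0.343 and 0.349% in Mettl3 CKO. Whether the libraries retained short RNA alike was not tested.

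Transcripts of the mitochondrial genome had the lowest median of the 44 lists. Of 10 tested mRNAs, 1 was higher and 6 lower (1 and 5), with a median of -1.16 (-1.003 with upper quartiles), and 5 of 10 had opposite signs. The complex I subunit gene mt-Nd4 had 339 and 337 CPM in the Mettl14 Control libraries and 168 and 177 in Mettl14 CKO, against 151 and 159 in Mettl3 Control and 219 and 234 in Mettl3 CKO. It fell in Mettl14 CKO and rose in Mettl3 CKO without overlap, and its difference was -1.52 ± 0.05 (SE, edgeR adjusted p = 3.4e-61). The cytochrome b gene mt-Cytb (-1.46 and 0.47) and the complex I genes mt-Nd1 (-1.13 and 0.49), mt-Nd2 (-1.09 and 0.46) and mt-Nd5 (-1.13 and 0.33) did the same. mt-Nd6, the complex I gene encoded on the other strand, was the higher member (0.21) and overlaps mt-Nd5 there. The whole mitochondrial genome held 2.99 and 3.01% of all counts in the Mettl14 Control libraries, 1.43 and 1.43% in Mettl14 CKO, 1.06 and 1.12% in Mettl3 Control and 1.26 and 1.33% in Mettl3 CKO; how far RNA from outside the nucleus entered these values was not tested. The nuclear-encoded subunits of oxidative phosphorylation gave 11 higher and 31 lower of 80 (9 and 21; median -0.15, 0.01 with upper quartiles), close to the shares over abundant genes, and 5 to 6 were higher after leaving out any single library. Atp5j, an ATP synthase subunit gene, had a difference of -0.91 ± 0.07 and overlaps Gabpa on the opposite strand.

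Genes of mitosis fell in both knockouts, and more of them with Mettl14. Of 39 mitosis and spindle genes, 0 were higher and 28 lower (0 and 19; median -0.28); 37 fell in Mettl14 CKO and 21 in Mettl3 CKO (35 and 33 with upper quartiles). Incenp, a scaffold of the chromosomal passenger complex, had 329.9 and 314 CPM in the Mettl14 Control libraries and 112 and 112 in Mettl14 CKO, against 85.8 and 82.5 in Mettl3 Control and 83.6 and 81.7 in Mettl3 CKO. Mettl14 CKO lay far below its control while the Mettl3-line groups overlapped in range (difference -1.50 ± 0.06, SE, edgeR adjusted p = 1.8e-52). The proliferation marker Mki67 had opposite calls with TMM (-0.95 and 0.11), and its Mettl3 change was not called with upper quartiles (-0.01). Of 44 DNA replication genes, 3 were higher and 25 lower (2 and 10; median -0.21), below the 25.3% of abundant genes with all 3 scalings; the licensing factor Cdt1 had a difference of -1.15 ± 0.10. Of 62 replication-dependent histone genes, 3 were higher and 22 lower (3 and 15; median -0.25), with Hist2h2ac at -1.32 ± 0.08. The lower shares of the histone list, 35.5% with TMM and 24.2% with all 3 scalings, lay below those of abundant genes (40.2 and 25.3%).

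**Figure D4:**
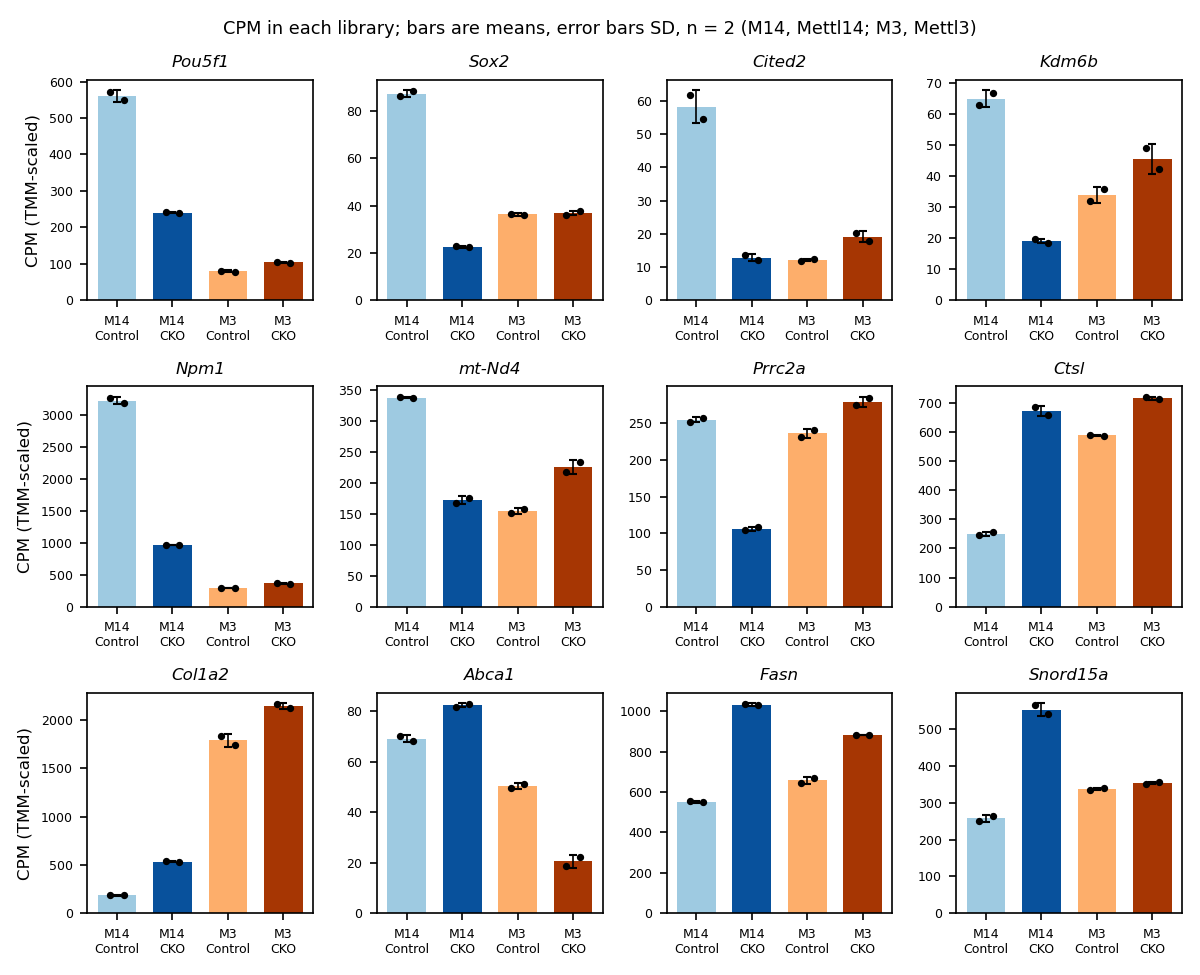
CPM of 12 genes in each library (points), with group means (bars) and SD (error bars), n = 2; M14 and M3 stand for the Mettl14 and Mettl3 lines, and each axis starts at 0. Pou5f1, Cited2, Kdm6b, Npm1, mt-Nd4 and Prrc2a go down in Mettl14 CKO and up in Mettl3 CKO, Ctsl, Col1a2 and Fasn go up in both and more so with Mettl14, and Abca1 goes up with Mettl14 and down with Mettl3.

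Cholesterol synthesis was the one list of the 44 in which every tested member rose in both knockouts with TMM. All 25 tested genes of cholesterol synthesis and SREBP2 targets rose in each knockout (medians 0.94 and 0.76; 23 of 25 in Mettl3 CKO with upper quartiles), and 9 were higher and 2 lower in the difference (9 and 0; median 0.21). Hmgcs1, a synthase of the pathway, had 153 and 159 CPM in the Mettl14 Control libraries and 219.7 and 223 in Mettl14 CKO, against 102 and 102 in Mettl3 Control and 115 and 112 in Mettl3 CKO. It rose by 0.51 ± 0.04 in Mettl14 CKO and, with TMM, by 0.16 ± 0.04 in Mettl3 CKO, a difference of 0.35 ± 0.05 (SE, edgeR adjusted p = 9.9e-09), and the groups did not overlap within either line. Sqle, squalene epoxidase, had a difference of 0.09 ± 0.05 and was not called. The isomerase gene Idi1 and the regulator gene Srebf2 were lower with TMM (-0.37 and -0.21) and not with all 3 scalings.

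Most fatty acid genes rose in both knockouts. Of 18 tested, 15 rose in Mettl14 CKO and 14 in Mettl3 CKO (12 with upper quartiles), and 0 fell in either. Of 18 genes of fatty acid synthesis and SREBP1 targets, 8 were higher and 2 lower (8 and 1; median 0.12); 5 were higher without Mettl3 CKO replicate 1, and 4 to 5 lower without either Mettl3 CKO library, either Mettl3 Control library or Mettl14 Control replicate 1. Fasn, fatty acid synthase, had 555 and 549 CPM in the Mettl14 Control libraries and 1036 and 1029 in Mettl14 CKO, against 645 and 671 in Mettl3 Control and 881 and 882 in Mettl3 CKO, a difference of 0.48 ± 0.03 (SE, edgeR adjusted p = 4.3e-26). Srebf1, the regulator of this program, was higher (0.73 ± 0.07) and overlaps Rai1 on the opposite strand. Scd1, stearoyl-CoA desaturase, went the other way: it rose more in Mettl3 CKO (0.94 ± 0.03) than in Mettl14 CKO (0.49 ± 0.03), a difference of -0.45 ± 0.05.

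Sterol export genes differed between the knockouts as well. Of 12 tested genes of cholesterol efflux and LXR targets, 6 were higher and 0 lower (6 and 0; median 0.48). Abca1, the cholesterol exporter (chromosome 4, 53030787 to 53159895, minus strand), had 70.2 and 68.2 CPM in the Mettl14 Control libraries and 81.7 and 82.8 in Mettl14 CKO, against 49.5 and 51.3 in Mettl3 Control and 18.8 and 22.3 in Mettl3 CKO. It rose slightly in Mettl14 CKO and fell by 1.30 in Mettl3 CKO, and the difference was 1.55 ± 0.09 (SE, edgeR adjusted p = 3.4e-35). Its relative Abcg1 fell in Mettl3 CKO (-1.08, adjusted p = 0.0022), but its difference was not called (0.89 ± 0.40, adjusted p = 0.079). Apoe, the lipid carrier, had 2390.0 and 2347 CPM in the Mettl14 Control libraries and 4109 and 4076 in Mettl14 CKO, against 937 and 879 in Mettl3 Control and 974 and 958 in Mettl3 CKO; it rose in Mettl14 CKO and had a difference of 0.70 ± 0.03. The late endosomal cholesterol transporters Npc1 (0.41) and Npc2 (0.68) and the lipid transfer gene Pltp (0.66) were higher too.

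Lysosomal genes rose in both knockouts and more with Mettl14. Of 33 lysosome genes and TFEB targets, 24 were higher and 3 lower (23 and 2; median 0.55, 0.71 with upper quartiles); 27 rose in Mettl14 CKO and 23 in Mettl3 CKO, the latter 12 with upper quartiles. Ctsl, the protease cathepsin L (chromosome 13, 64359337 to 64370890, minus strand), had 245 and 256 CPM in the Mettl14 Control libraries and 684 and 658 in Mettl14 CKO, against 589 and 586 in Mettl3 Control and 718 and 711 in Mettl3 CKO. Mettl14 CKO rose close to the level of the Mettl3 line, where both groups were already high, and the difference was 1.14 ± 0.04 (SE, edgeR adjusted p = 1.8e-58). Ctsd, cathepsin D, had a difference of 1.10 ± 0.05, the hexosaminidase gene Hexa 1.15 and Ctsb, cathepsin B, 0.81. Gpnmb, a glycoprotein of lysosomes and melanosomes, had 17.2 and 18.8 CPM in the Mettl14 Control libraries and 77.6 and 80.2 in Mettl14 CKO, against 32.5 and 30.0 in Mettl3 Control and 43.99 and 48.4 in Mettl3 CKO, with rises in both knockouts and a difference of 1.57 ± 0.10. Grn, which encodes progranulin, was an exception with opposite changes (-0.80 and 0.41; difference -1.203 ± 0.06). Of the factors that drive these genes, Tfeb was not called (-0.12) and Tfe3 was lower with TMM only (-0.34).

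Extracellular matrix genes formed the other large group with higher differences. Of 17 basement membrane genes, 15 were higher and 1 lower (15 and 1; median 0.43). Col4a1, a chain of collagen IV, had 158 and 152 CPM in the Mettl14 Control libraries and 316 and 325 in Mettl14 CKO, against 607 and 569 in Mettl3 Control and 654 and 651 in Mettl3 CKO. It changed by 1.05 ± 0.03 in Mettl14 CKO and 0.15 ± 0.03 in Mettl3 CKO, a difference of 0.90 ± 0.04 (SE, edgeR adjusted p = 6.0e-43); it overlaps Col4a2, a chain that was also higher (0.71), on the opposite strand. Sparc, a collagen-binding protein, had a difference of 0.53 ± 0.03. Lama1, the laminin chain of early embryos, was not called in Mettl14 CKO (0.05) and fell in Mettl3 CKO (-0.72), with a difference of 0.77 ± 0.06, and Nid1 was the lower member (-0.36).

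Fibroblast-marker genes were higher too. Of 26 tested, 15 were higher and 2 lower (15 and 1; median 0.68). Col1a2, a chain of collagen I (chromosome 6, 4504814 to 4541544, plus strand), had 184 and 185 CPM in the Mettl14 Control libraries and 539 and 531 in Mettl14 CKO, against 1837 and 1742 in Mettl3 Control and 2159.5 and 2121 in Mettl3 CKO, a difference of 1.28 ± 0.04 (SE, edgeR adjusted p = 2.4e-66). All Mettl3-line libraries lay above all Mettl14-line libraries, before and after knockout. Col5a2, of collagen V, had 1.22 ± 0.04, Fbln2, of elastic fibres, 1.22 ± 0.04 and Col6a3 1.42 ± 0.18, while the partner chain Col1a1 was not called (0.04 ± 0.03) and the mesenchymal factor gene Twist1 was lower (-1.18 ± 0.24). Over the 14 markers of fibroblasts, summed levels were 979 and 953 CPM in the Mettl14 Control libraries, 2144 and 2145 in Mettl14 CKO, 7656 and 7391 in Mettl3 Control and 8901 and 8814 in Mettl3 CKO. In Mettl14 CKO, 13 of 14 lay above both controls, and all 14 had counts in some library. Of the 14, 8 lay over 10 CPM in every library, among them the growth factor receptor gene Pdgfrb, at 20.1 to 107 CPM, and the mesenchymal factor gene Prrx1, at 12.9 to 44.9. The fibroblast markers Dcn, Lum, Thy1 and Twist2 stayed at or below 4.96 CPM in every library, and Lum had 0 counts in 1 Mettl14 Control library. The part of other cells in these values was not tested.

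Contractile and mesenchymal cytoskeleton genes were mixed, with 11 higher and 6 lower of 24 (11 and 4; median 0.23), and 5 rose in Mettl14 CKO and fell in Mettl3 CKO. Flna, the actin crosslinker filamin A (chromosome X, 74223461 to 74249820, minus strand), had 913 and 898 CPM in the Mettl14 Control libraries and 1471 and 1462 in Mettl14 CKO, against 2164 and 2142 in Mettl3 Control and 1849 and 1856 in Mettl3 CKO. The lines moved toward each other, and the difference was 0.91 ± 0.03 (SE, edgeR adjusted p = 8.5e-57). The smooth muscle actin gene Acta2 had 0.74 ± 0.05 and Tagln, transgelin, 1.02 ± 0.08. The nonmuscle myosin genes Myh10 (-0.48) and Myh9 (-0.19) were lower, the latter with TMM only.

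Among stress lists, the p53 list had more higher than lower calls, and the ATF4 and glycolysis lists had more lower than higher calls with TMM and with all 3 scalings and the reverse with upper quartiles (10 higher and 8 lower, and 9 and 6). With TMM, 37.9% of the ATF4 list and 32.1% of the glycolysis list were lower, against 40.2% of abundant genes. With all 3 scalings, 27.6% and 21.4% were lower, against 25.3%, so neither list stood out by its lower share. Of 32 p53 pathway genes and targets, 11 were higher and 5 lower (11 and 1, or 34.4% and 3.1%, against 14.1 and 25.3% of abundant genes; median 0.10), with 7 higher without Mettl14 CKO replicate 2 or without Mettl14 Control replicate 1. Trp53inp1 and Perp, 2 genes of the p53 death program, had differences of 0.56 ± 0.04 and 0.88 ± 0.08 (SE, edgeR adjusted p = 1.4e-24 and 1.0e-17), while Trp53 itself was not called (0.06). The ATF4 and unfolded protein list gave 7 higher and 11 lower of 29 (5 and 8; median -0.14, 0.02 with upper quartiles). Slc7a5, an amino acid transporter and ATF4 target, had 143 and 146 CPM in the Mettl14 Control libraries and 122 and 129 in Mettl14 CKO, against 54.6 and 55.2 in Mettl3 Control and 82.4 and 80.6 in Mettl3 CKO; it fell in Mettl14 CKO and rose in Mettl3 CKO (difference -0.77 ± 0.06, adjusted p = 3.2e-22). In this list 4 were higher without either Mettl14 CKO library, Mettl14 Control replicate 2, Mettl3 CKO replicate 2 or Mettl3 Control replicate 1. Glycolysis and hypoxia genes gave 4 higher and 9 lower of 28 (4 and 6; median -0.07, 0.09 with upper quartiles), with Pkm, pyruvate kinase, at -0.66 ± 0.03 and P4ha1, a collagen hydroxylase, at 0.72 ± 0.06.

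In the Wnt list, 5 were higher and 10 lower of 22 (5 and 7; median -0.05, 0.11 with upper quartiles); 1 to 3 were higher without Mettl14 CKO replicate 2, either Mettl14 Control library or either Mettl3 Control library. The T-cell factors Tcf7l1 and Tcf7l2, which carry Wnt signals to DNA, had differences of -1.41 ± 0.12 and -1.18 ± 0.10 (SE, edgeR adjusted p = 4.9e-21 and 2.9e-21). Of 22 YAP, TEAD and Hippo genes, 6 were higher and 10 lower (5 and 9; median -0.07, 0.09 with upper quartiles). Yap1, the coactivator, was lower (-0.91 ± 0.07) and its target gene Ccn2 higher (0.47 ± 0.04). The ERK list had 5 higher and 7 lower of 20 (5 and 4; median -0.01, 0.15 with upper quartiles), with 2 higher without Mettl14 CKO replicate 1 and 3 without Mettl14 Control replicate 2 or Mettl3 Control replicate 1; Epha2 was higher (0.29 ± 0.04) and Spred2, an inhibitor of the pathway, lower (-0.69 ± 0.09). Of 19 LIF, JAK and STAT3 genes, 2 were higher and 6 lower (1 and 3), and the phosphatase gene Ptpn11 was among the lower (-0.62 ± 0.05).

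Immediate-early and AP-1 genes were higher in 9 and lower in 5 of 26 (9 and 4; median 0.30). Ccn2 was higher, as above, and Ier2 lower (-1.21 ± 0.11, SE, edgeR adjusted p = 1.6e-19). Fos, a subunit of AP-1, had 4.29 and 5.27 CPM in the Mettl14 Control libraries and 5.41 and 4.91 in Mettl14 CKO, against 12.1 and 12.5 in Mettl3 Control and 7.86 and 5.65 in Mettl3 CKO; it fell in Mettl3 CKO, where control levels were higher, and was not called in Mettl14 CKO, and its difference was 0.97 ± 0.23. Imprinted genes gave 8 higher and 14 lower of 39 (8 and 12; median 0.12), with 5 higher without either Mettl14 CKO library, either Mettl14 Control library or Mettl3 CKO replicate 1. Mirg, a noncoding RNA of the Dlk1-Dio3 domain, had 66.8 and 68.3 CPM in the Mettl14 Control libraries and 123 and 126 in Mettl14 CKO, against 128 and 135 in Mettl3 Control and 115 and 117 in Mettl3 CKO, a difference of 1.07 ± 0.06 (adjusted p = 4.2e-35); the paternally expressed Zdbf2 was lower (-0.63 ± 0.03). Of 30 nuclear long noncoding RNAs, 13 were higher and 5 lower (12 and 4, median 0.18), and Neat1, the scaffold of paraspeckles, had a difference of 0.63 ± 0.03. With all 3 scalings, higher shares were 34.6% (immediate-early), 20.5% (imprinted) and 40.0% (noncoding RNAs), against 14.1% of abundant genes. Lower shares were 15.4, 30.8 and 13.3%, against 25.3%. With TMM, 35.9% of imprinted genes were lower, against 40.2%.

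The primitive endoderm, Hox, bivalent and germline lists held few abundant genes (4 of 15, 1 of 33, 6 of 34 and 7 of 23). The interferon list held 12 of 32 and the trophectoderm list 10 of 16. Rare genes had higher differences, with a median of 1.21 in the least abundant eighth of tested genes and 0.57 in the next. Whether medians above 0 in these lists differ from this trend was not tested. Primitive endoderm genes were higher in 6 and lower in 1 of 15 (6 and 1; median 0.55); Cubn and Lrp2, 2 endocytic receptors, had differences of 1.32 ± 0.21 and 0.36 ± 0.04 (SE, edgeR adjusted p = 9.4e-08 and 2.6e-15), while the defining factors Gata4 (0.41) and Gata6 (0.21) were not called. Trophectoderm genes were higher in 2 and lower in 6 of 16 (2 and 5; median -0.48), with Tfap2a, a factor gene of that lineage, at -2.002 ± 0.24 and the keratin gene Krt18 at 0.49 ± 0.07. In the 2-cell-like list 4 were higher and 2 lower of 19 (4 and 2, median 0.73), and 2 of the 19 were abundant. In Mettl14 CKO 0 rose and 4 fell (median -0.11), and in Mettl3 CKO 1 rose and 4 fell (median -0.63). The controls differed by a median of 3.29 (log2, Mettl14 Control minus Mettl3 Control). With the stricter filter, the median difference over the members it kept was -0.4. Interferon genes gave 5 higher and 3 lower of 32 (5 and 2), with 2 to 3 higher without either Mettl14 CKO library, Mettl14 Control replicate 2, Mettl3 CKO replicate 2 or Mettl3 Control replicate 2; Eif2ak2, the kinase PKR, was lower (-0.85 ± 0.09). Germline genes gave 3 higher and 3 lower of 23 (3 and 2), bivalent developmental factors 3 and 5 of 34 (3 and 4), and Hox genes 0 and 2 of 33 (0 and 2), which are Hoxb13 (-1.50 ± 0.35) and Hoxa7 (-1.22 ± 0.31). With TMM, 12.7% of all tested genes were higher and 20.5% lower. These shares were 15.6 and 9.4% for interferon, 13.0 and 13.0% for germline, 8.8 and 14.7% for bivalent and 0 and 6.1% for Hox genes. They were 40.0 and 6.7% for primitive endoderm, 12.5 and 37.5% for trophectoderm and 21.1 and 10.5% for 2-cell-like genes.

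Among abundant genes, some of the most extreme differences belong to genes whose reads cannot be assigned with certainty. Rtl1, an imprinted retrotransposon-derived gene, had the highest of those named (3.02 ± 0.21), and 4 microRNA genes lie on its opposite strand. Ccdc107 (2.000 ± 0.09) overlaps, in the annotation, the RNA gene Rmrp on the opposite strand, which the deposited tables list at 0 counts in every library. Lars2, which encodes a mitochondrial leucyl-tRNA synthetase, had 712 and 693 CPM in the Mettl14 Control libraries and 35.8 and 32.5 in Mettl14 CKO, against 22.3 and 23.7 in Mettl3 Control and 25.6 and 26.4 in Mettl3 CKO, a difference of -4.54 ± 0.08 (SE, edgeR adjusted p = 4.6e-89); it fell far in Mettl14 CKO from a control level that no Mettl3-line library had. Part of the annotated Lars2 gene is known to resemble ribosomal RNA, so its reads are uncertain as well. The mitochondrial ribosomal RNA mt-Rnr1 had 10314 and 10327 CPM in the Mettl14 Control libraries and 1844 and 1839 in Mettl14 CKO, against 702 and 766 in Mettl3 Control and 852 and 881 in Mettl3 CKO (-2.73 ± 0.04). Other genes named for their size were Pla2g7, a phospholipase (1.51 ± 0.15), Col10a1, of collagen X (1.43 ± 0.07), and the growth factor gene Vegfb (-2.11 ± 0.19). Tchh and Anp32a fell in both knockouts and more with Mettl14 (differences -1.60 ± 0.08 and -1.49 ± 0.07).

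The median difference went down with abundance. In the least abundant eighth of tested genes it was 1.21, with 346 genes higher and 9 lower, and in the most abundant eighth -0.18, with 486 higher and 1537 lower. Between them it passed 0 near the middle, and upper-quartile scaling moved all eighths up. Olfactory and vomeronasal receptor genes, 1731 in all and not known to be expressed in stem cells, summed to 115 and 127 CPM in the Mettl14 Control libraries, 186 and 200.4 in Mettl14 CKO, 432 and 438 in Mettl3 Control and 258 and 248 in Mettl3 CKO. They were highest in Mettl3 Control and lower in Mettl3 CKO, and higher in Mettl14 CKO than in its control; their part in the differences of rare transcripts was not tested.

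**Figure D5:**
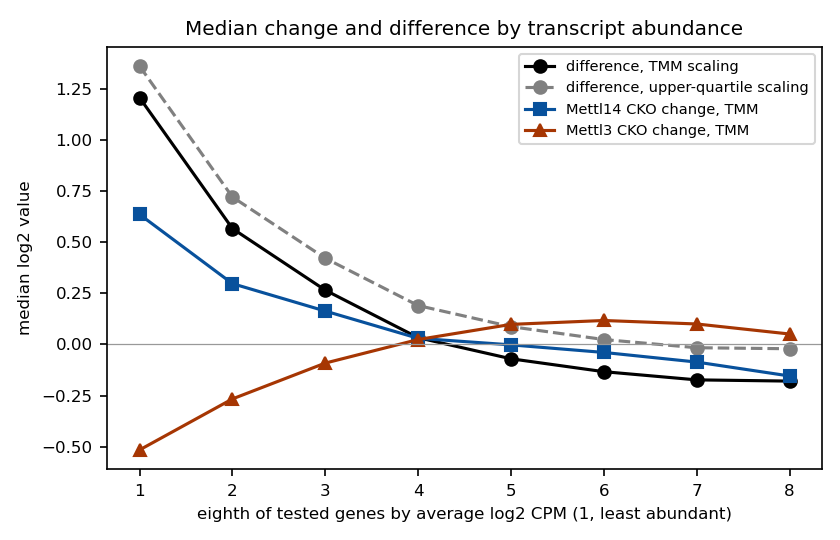
Median log2 difference with TMM scaling (black) and upper-quartile scaling (grey, dashed), and median change in Mettl14 CKO (blue) and Mettl3 CKO (brown), over eighths of the 21782 tested genes by average log2 CPM. The TMM difference goes from 1.21 in the least abundant eighth to -0.18 in the most abundant.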

How the data were processed

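The 8 libraries were prepared from ribosomal RNA-depleted nuclear RNA with a stranded total RNA kit, per the labels' protocols. The authors deposited 1 table of raw read counts per gene for each library. The submitters' processing notes name CASAVA, Trimmomatic 0.38, HISAT2 2.1.0, HTSeq and the mm10 build. The sources used here do not give the annotation release, the strand setting or the handling of reads with several matches. Of 54446 genes, 54409 matched GENCODE M21, which gave symbols, positions and overlaps, and 37 did not; no line named no gene.

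The counts were fitted in edgeR 4.0.16 (R 4.3.3) with TMM scaling, a minimum count of 10 in filterByExpr, and 1 mean per group over all 8 libraries, which left 4 residual degrees of freedom (common dispersion 0.000571). The robust quasi-likelihood test was applied to the difference and to each knockout, with Benjamini-Hochberg adjustment over 21782 genes and a threshold of 0.05. Total counts limit the precision: they ran from 17235889 to 20086128, with TMM factors of 0.834 to 1.151. On simulated data for the difference over 21782 genes, genes given a change of 0.5 (log2) were recovered in 31% of cases and those given 1 in 60% (66.7% and 100% of abundant ones); 6 of 97 calls were false. The simulation gave all groups the same mean per gene, apart from the genes changed in Mettl14 CKO. It held no difference between the controls and few changed genes, so its shares do not carry over to the observed calls. Replicates of a group correlated at 0.996 to 0.998 and differed beyond counting noise.

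The members and the 44 gene lists were chosen with earlier results of these data known. Genes were named by a rule, which took the targeted genes and, of each list, up to 2 called members with the smallest p. Further genes came from called genes that are abundant (mean log2 CPM of 3 or more), with a real symbol and no pseudogene class. Their 2 CKO libraries also had to lie on one side of the 2 Control libraries in at least 1 line. For these genes, a lack of overlap in 1 line was thus a condition of the choice. From them the rule took the 8 highest and 8 lowest differences, the 8 of each opposite order with the largest smaller change, and the 4 largest of the same direction. This gave 117 genes, of which 36 overlap another gene with a mean of at least 1 CPM, 22 on the opposite strand. Other members in the text were chosen after their values were seen. Alternatives were RLE and upper-quartile scaling, no filter, a stricter filter, a replicate block, DESeq2 1.42.0, limma-voom (limma 3.58.1) and leaving out each library. Calls held in all 3 scalings and a subtraction of GC content were added after seeing the data. Replicate numbers did not pair the samples. Some results are not reported here.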

Additional observations from a re-analysis of the deposited data

Results flagged for a closer look

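The 2 lines differed under the same contrast, by the test of the difference itself (edgeR's quasi-likelihood test), in 2777 genes with a higher and 4461 with a lower value for Mettl14, and changed in opposite directions in 997 and 145 genes. Among abundant genes that the naming rule chose for size, the lowest differences were those of n-R5s194 (-7.46), Mir6236 (-5.40), Lars2 (-4.54), Cited2 (-2.84), mt-Rnr1 (-2.73), Zfp296 (-2.36), Kdm6b (-2.19) and Vegfb (-2.11). n-R5s194, a 5S ribosomal RNA gene copy with 0 to 2 counts in each Mettl3-line library, and Mir6236 had few counts in that line, so their values are uncertain. The highest were those of Col6a3 (1.42), Col10a1 (1.43), Pla2g7 (1.51), Plau (1.51), Abca1 (1.55), Gpnmb (1.57), Ccdc107 (2.00) and Rtl1 (3.02).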

How the results depend on the processing

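All 117 named genes kept their direction and their side of the threshold in every alternative that tested them (114 under the stricter filter), and 117 of 117 kept their sign after subtraction of the median over genes with similar GC content. All 117 were called in the main fit, and most were chosen for a large change or a small p. Their stability was thus largely set by the choice and says little of other genes. Counts of calls moved more. Upper-quartile scaling gave 4287 higher and 2788 lower differences, 1293 genes up and 2771 down in Mettl3 CKO, and 323 and 399 of opposite order; calls held in all 3 scalings were 2788 lower, with 323 down with Mettl14 and up with Mettl3. The stricter filter gave 2603 lower differences, 1648 up in Mettl3 CKO, 418 and 314 opposite, and 464 called with Mettl3 and not Mettl14. Without a filter on low counts these were 5446 lower and 1917 higher differences, 5814 up and 559 down in Mettl3 CKO, 1847 and 53 opposite, and 1340 with Mettl3 and not Mettl14. DESeq2 gave 1256 higher differences, 2470 up in Mettl14 CKO, 1603 up and 535 down in Mettl3 CKO, 498 and 45 opposite, 275 with Mettl3 and not Mettl14, and 455 in the same direction. The cause of these moves was not tested.

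Leaving out 1 library at a time gave 1987 to 2380 higher and 4429 to 4598 lower differences, 2994 to 4110 up and 4206 to 4898 down in Mettl14 CKO, 3339 to 4347 up and 599 to 1070 down in Mettl3 CKO, 1001 to 1205 and 60 to 85 opposite, 3024 to 3812 called with Mettl14 alone, 737 to 1019 with Mettl3 alone and 639 to 758 in the same direction; the group left with 1 library is assumed to vary like the others. With the replicate number as a block, 2795 were higher and 4480 lower; deviations of libraries with the same number correlated between -0.03 and 0.11, so the numbers do not pair the samples. Depth limits rare transcripts most.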

Other observations

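The 5S ribosomal RNA gene copy n-R5s194 had 4269 and 4837 counts in Mettl14 Control, 76 and 90 in Mettl14 CKO, 0 and 1 in Mettl3 Control and 1 and 2 in Mettl3 CKO, so the Mettl3 line gives no fold change for it. Genes classed as ribosomal RNA held 0.0369 and 0.0422% of all counts in the Mettl14 Control libraries, 0.0093 and 0.0095% in Mettl14 CKO, 0.0336 and 0.0275% in Mettl3 Control and 0.0413 and 0.0428% in Mettl3 CKO.

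By chromosome, the median difference of abundant genes lay between -0.10 (chromosome 1) and -0.23 (chromosome 12) on the autosomes and X, and at -0.87 for the mitochondrial genome. The controls differed by a median (log2, Mettl14 Control minus Mettl3 Control) of 0.65 on chromosome 8, 0.58 on 18, 0.46 on 13 and on 4, 0.43 on X and 1.64 for the mitochondrial genome, against 0.30 over all abundant genes. The nuclear RNA Malat1 held 1.79 and 1.82% of all counts in the Mettl14 Control libraries, 2.87 and 2.82% in Mettl14 CKO, 3.79 and 3.73% in Mettl3 Control and 4.28 and 4.22% in Mettl3 CKO, so it rose in both lines toward different levels.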
